A study of Solanum lycopersicum with 86 samples.

Results

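Light-harvesting chlorophyll a/b binding proteins and the small subunit of Rubisco were followed in the messenger RNA of tomato stems (Solanum lycopersicum). The genes were chosen by a list of 34 identifiers, 31 for chlorophyll a/b binding proteins of both photosystems and 3 for Rubisco small subunits. Of the 34, 32 were among the 23050 genes of the table, 29 chlorophyll a/b binding genes and all 3 small subunit genes (Solyc02g085950, Solyc02g063150 and Solyc03g034220). Solyc03g005790 and Solyc05g056070 had no row and were not analysed here. The table and the gene reference at hand pair none of the 32 identifiers with a name (0 matches), so each gene is given by its identifier and its family only.

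The plants were of the cultivars Moneymaker and M82, neither said to carry a transgene or mutation. They were raised at 20 °C, 70% humidity and 16 h light with 8 h dark, and after 1 week of germination they had grown for 7 days in white light when the treatments began. One group then received supplementary far-red (FR) on top of the white light, at a ratio of red to far-red of 0.21, and the other stayed in white light alone (WL), both at 200 PAR. Pith, the innermost tissue, was taken at 30 and 48 h from the first internode, the stem segment above the cotyledons, and whole internodes at 6, 24, 30 and 48 h. A whole internode still contains its pith, so the tissues compared are not separate. Moneymaker gave 8 FR and 6 WL libraries of pith and 19 FR and 13 WL libraries of internodes. M82 gave 5 FR and 9 WL libraries of pith and 11 FR and 15 WL libraries of internodes. The 86 libraries make 24 groups of 2 to 6.

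Chlorophyll a/b binding proteins are the antenna of the photosystems: they hold chlorophyll in the thylakoid membrane and pass absorbed light energy to the reaction centres. The small subunit of Rubisco combines with a large subunit, encoded in the chloroplast, to form the enzyme that fixes carbon dioxide. Both families are encoded in the nucleus by many similar gene copies, and in many plants their transcripts are controlled by light, by the phytochrome photoreceptors and by the circadian clock. A young tomato stem is green and photosynthetic. The comparisons asked whether these genes follow the far-red signal of neighbouring plants, the time of day or the position in the stem.

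Values are scaled reads, that is read counts which the authors divided by 1 factor per library. The libraries held between 0.769 and 22.1 M reads over the genes of the table (median 2.98 M). The 29 chlorophyll a/b binding genes took 0.590 to 1.54% of a library's reads (median 1.07%) and the 3 small subunit genes 0.281 to 0.967% (median 0.516%). All 32 genes passed the filter on low values and none was at 0 in any library. The genes with the fewest reads, Solyc06g069000 and Solyc08g067330, averaged 31.5 and 80.4 reads per library. Values are shares of the RNA of a whole tissue sample, in which fewer cells of a type and less RNA per cell cannot be told apart. Tissue labels could not be set against marker genes, because the table gives no names.

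Expression went against the labels in 12 libraries, and the main counts and differences are also given without them. Their removal left only replicate 2 in the M82 WL internodes at 24 h. M82 comparisons that use this group have no replication there without the 12. In the Moneymaker WL internodes at 48 h removal left only replicates 7 and 8, whose deposited names have another form. Values without the 12 that use that group rest on these libraries, and an effect of the form was not tested. Scored with genes that differ strongly between the cultivars, 6 libraries labelled M82 expressed Moneymaker genes. They are the WL internodes at 6 h (replicates 1 and 5), 24 h (replicate 1) and 30 h (replicate 1), and the WL pith at 30 and 48 h (replicate 1 each). Another 3 labelled Moneymaker expressed M82 genes: the WL internodes at 30 and 48 h and the FR pith at 48 h, all replicate 3. The Moneymaker WL internode at 48 h, replicate 1, and the M82 WL pith at 48 h, replicates 5 and 6, went against their time labels, replicate 5 being in between. The cultivar score was the mean log2 value of the Moneymaker genes minus that of the M82 genes, and only its sign was used. Some kept M82 libraries at 48 h scored little on the M82 side. Examples are FR internodes, replicates 4 (-0.15) and 2 (-0.92), WL internode replicate 2 (-0.56), and FR pith replicate 1 (-0.63). Kept Moneymaker FR internodes at 48 h, replicates 7 (1.873) and 8 (1.445), also scored lower than the other kept Moneymaker libraries, the next being 2.741. The cultivar of all these libraries is less clear, and results without the 12 still hold them. None of the 32 genes served as a marker in these checks. The light label was taken from the sample titles, since a treatment field gives FR for the Moneymaker WL samples too.

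**Figure D1:**
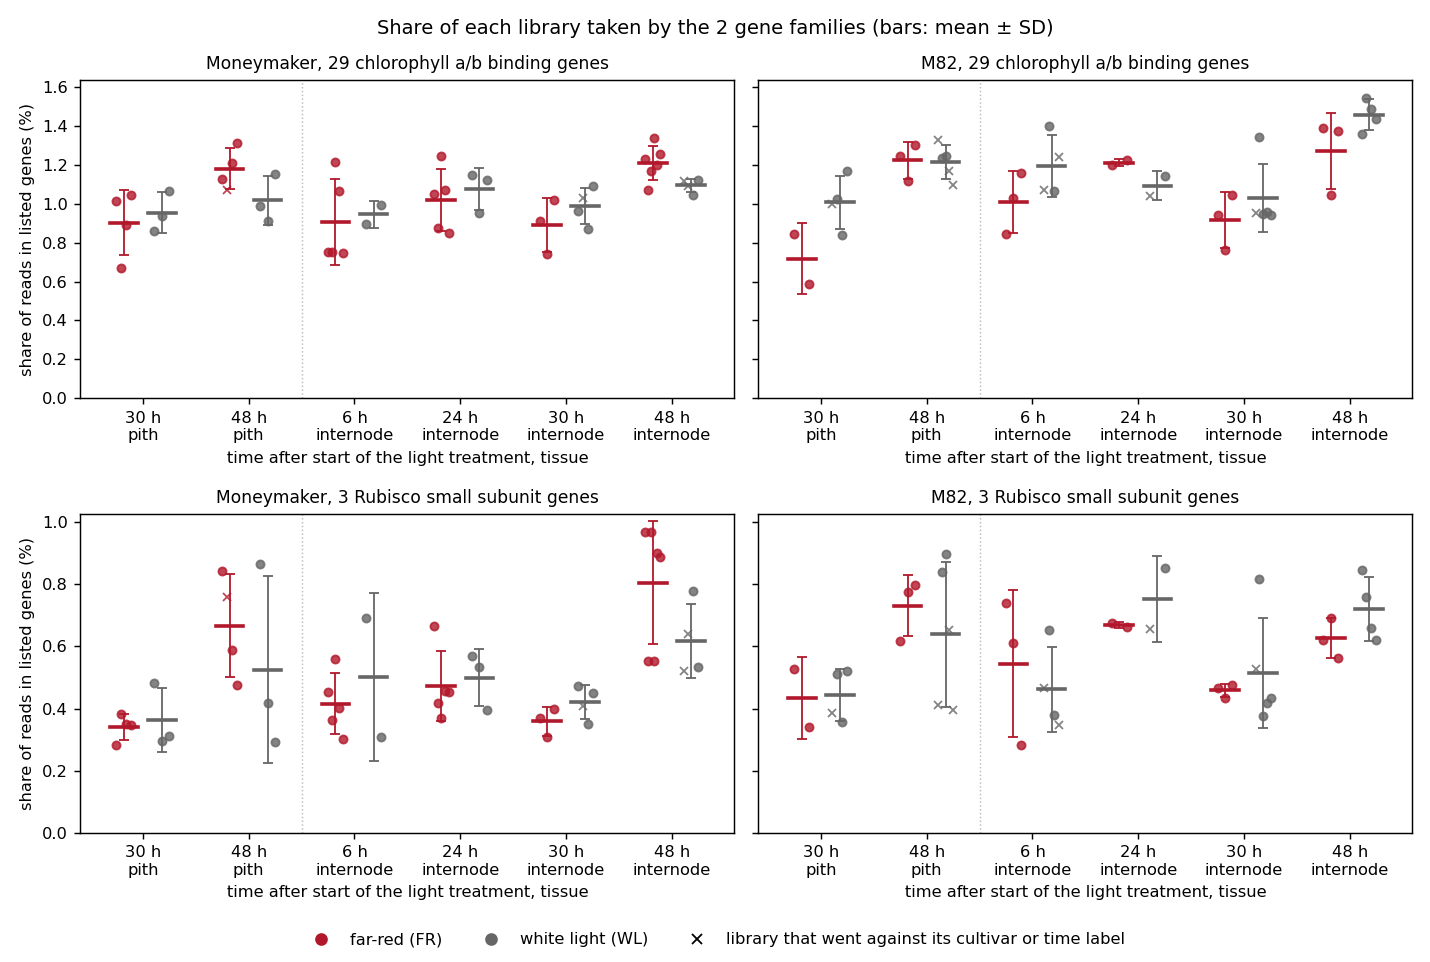
Share of the reads in listed genes (y axis, %) taken by the 29 chlorophyll a/b binding genes (top) and the 3 Rubisco small subunit genes (bottom) in every library, by time and tissue (x axis), for Moneymaker (left) and M82 (right). Points are libraries, crosses mark those that went against a label, and bars give the mean ± SD of a group. In Moneymaker FR internodes the chlorophyll a/b binding share averaged 0.905% at 6 h, 1.02% at 24 h, 0.891% at 30 h and 1.21% at 48 h.

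More of these genes were called by time of day than by light or tissue. Internodes at 24 and 48 h were taken at the clock time at which the treatment had begun, and those at 6 and 30 h were taken 6 h later in the day. The sources used here do not say at which hour of the light period the treatment began. In Moneymaker internodes 18 of the 32 genes were higher at 24 and 48 h than at 6 and 30 h and 1 was lower, at a Benjamini-Hochberg adjusted p below 0.05 over 19029 genes (limma on log2 of the scaled reads plus 1). Over all genes tested, 5.68% were called higher and 4.19% lower in this comparison. In M82 internodes 13 of the 32 were higher and 0 lower, where 5.28% and 3.81% of all genes were called. With the replicate as a block, calls over all genes (either direction) went from 1878 to 1704 in Moneymaker and 1729 to 1561 in M82. Among the 32 genes, 16 were then higher and 1 lower in Moneymaker. The M82 count with the block was 8, as it was when the WL library at 24 h, replicate 2, was left out. After removal of the 12 libraries 18 genes were called in Moneymaker, all of them also called with the 12. Calls over all genes in Moneymaker were then 2052. In M82 removal left only replicate 2 in WL at 24 h. The M82 median log2 difference of the 32 genes was then 0.39, and fewer genes were called, all of them also called with the 12. With all libraries the median log2 difference of the 32 genes was 0.44 in Moneymaker and 0.37 in M82. Over all genes tested it was 0.0037 and 0.025, and 29 and 26 of the 32 had a positive difference.

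All 13 genes called in M82 were among the 18 called higher in Moneymaker, which is 100% of the M82 list and 72.2% of the Moneymaker list. They were 12 chlorophyll a/b binding genes and Solyc02g085950. The other 5 Moneymaker calls were Solyc02g070980, Solyc02g070990, Solyc09g014520, Solyc05g056050 and the small subunit gene Solyc02g063150. By label the cultivars shared no libraries, but some internode libraries of each label expressed genes of the other cultivar. The lists are thus not from fully separate cultivars. Their overlap was not recounted after removal of the 12 libraries, and no overlap over all genes tested is given for comparison. In the same fit with all libraries, 29 of the 32 genes had the same sign in both cultivars. The test of the difference between the cultivars' clock effects called 0 of the 32 in limma, edgeR and DESeq2 alike, and in limma 1 gene had p below 0.05 before adjustment. A gene called in Moneymaker alone is therefore not shown to differ between them.

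Solyc12g006140, a chlorophyll a/b binding gene, differed most between the clock times. In Moneymaker internodes its scaled reads had a lowest value of 62.1, a median of 124 and a highest value of 289 at 24 and 48 h (n = 18), against 13.4, 44.9 and 99.7 at 6 and 30 h (n = 14). The groups overlapped through few libraries: the 62.1 came from the WL library at 48 h that went against its time label, and the 99.7 from FR replicate 4 at 6 h, the only library of its time group above 57.0. In M82 internodes the values were 134.6, 166 and 262 at 24 and 48 h (n = 11), against 38.8, 65.1 and 120.6 at 6 and 30 h (n = 15), with no overlap. The log2 difference was 1.61 ± 0.19 in Moneymaker (SE, 3.05-fold, limma adjusted p = 3.99e-10) and 1.37 ± 0.21 in M82 (2.59-fold, adjusted p = 5.33e-07). Leaving out the 12 libraries gave 1.61 in Moneymaker and 1.28 in M82 (adjusted p = 1.86e-10 and 6.57e-06).

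The course of Solyc12g006140 over the 4 times was a zigzag. In Moneymaker FR internodes its 5 libraries at 6 h had 29.9, 53.9, 99.7, 48.9 and 44.0 scaled reads, and those at 24 h had 128.7, 119, 126.5, 121 and 110.8. At 30 h its 3 FR libraries had 45.4, 13.4 and 32.6, and at 48 h the 6 FR libraries ran from 107 to 289 with a mean of 176. Every FR library at 24 or 48 h was above every FR library at 6 or 30 h in this cultivar. The Moneymaker WL internodes had 42.2 and 35.5 at 6 h, 176.9, 96.2 and 121 at 24 h, and 44.5, 55.3, 52.1 and 57.0 at 30 h. At 48 h the WL libraries had 62.1, 162.8, 119 and 82.5. In WL too the libraries at 24 and 48 h were above all those at 6 and 30 h.

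**Figure D2:**
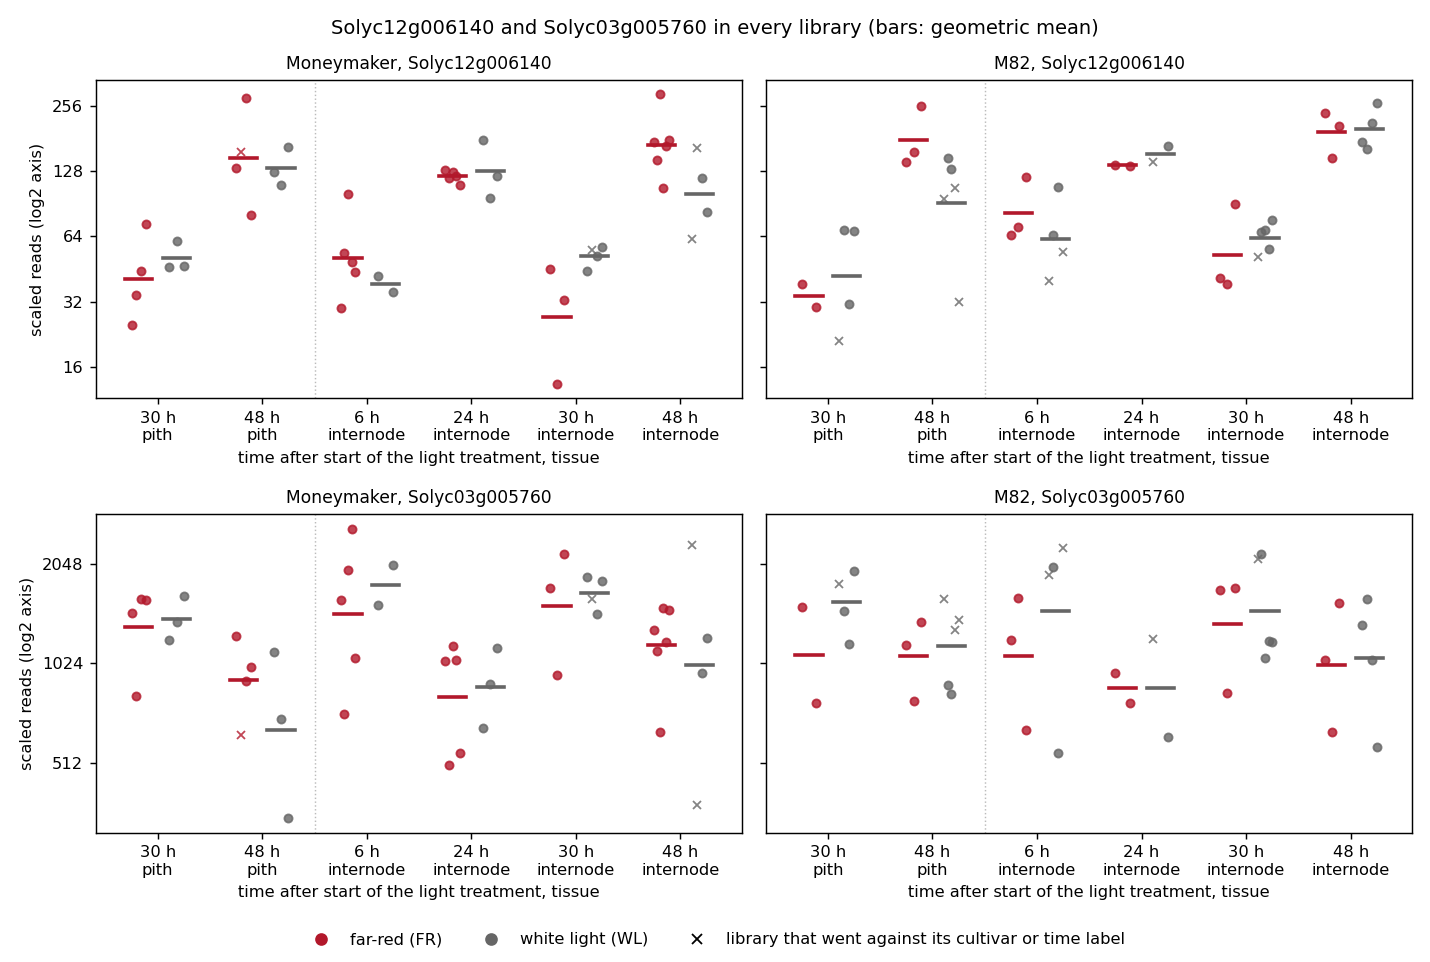
Scaled reads (y axis, log2 scale) of the chlorophyll a/b binding genes Solyc12g006140 (top) and Solyc03g005760 (bottom) in every library, by time and tissue (x axis), for Moneymaker (left) and M82 (right). Points are libraries, crosses mark those that went against a label, and bars are geometric means. Solyc12g006140 is high at 24 and 48 h and low at 6 and 30 h, and Solyc03g005760 leans the other way, with a log2 difference of -0.75 in Moneymaker internodes.

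The other chlorophyll a/b binding genes with the smallest p changed less. In Moneymaker internodes Solyc02g070940 had a lowest value of 832, a median of 1371 and a highest value of 1751 scaled reads at 24 and 48 h, against 584, 904 and 1215 at 6 and 30 h. The groups overlapped, and the log2 difference was 0.58 ± 0.13 (limma adjusted p = 0.0005). Solyc02g071030 had 399, 699 and 1220 at 24 and 48 h, against 230, 397 and 655 at 6 and 30 h, a difference of 0.70 ± 0.16 (limma adjusted p = 0.00073). In M82 internodes Solyc07g047850 had 1071, 1686 and 2347 at 24 and 48 h, against 585, 892 and 1222 at 6 and 30 h, a difference of 0.74 ± 0.15 (limma adjusted p = 0.00012). Solyc12g011450 had 888, 1158 and 1738.5 at 24 and 48 h, against 372, 694 and 1235.5 at 6 and 30 h, a difference of 0.82 ± 0.17 (limma adjusted p = 0.00017). Leaving out the 12 libraries gave 0.63 for Solyc02g070940 and 0.81 for Solyc02g071030 in Moneymaker, and 0.72 for Solyc07g047850 and 0.71 for Solyc12g011450 in M82, all still past the threshold (limma adjusted p = 0.000741, 0.000388, 0.00158 and 0.0018). Each of these 4 genes was called in internodes of both cultivars, and the remaining called differences ran from 0.34 for Solyc06g063370 in M82 to 0.79 for Solyc02g070980 in Moneymaker.

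Solyc03g005760, the chlorophyll a/b binding gene with the most reads, went the other way. In Moneymaker internodes it had a lowest value of 382, a median of 1083 and a highest value of 2331 scaled reads at 24 and 48 h, against 721, 1663.5 and 2611.5 at 6 and 30 h. The groups overlapped widely, and the 2331 belonged to the WL library at 48 h that went against its time label. The log2 difference was -0.75 ± 0.21 (limma adjusted p = 0.0119), and -0.73 without the 12 libraries (adjusted p = 0.0142). The call was lost without the Moneymaker WL library at 6 h, replicate 5, 1 of 2 in its group (-0.70, limma adjusted p = 0.0599). In M82 internodes the median was 1046 at 24 and 48 h and 1611 at 6 and 30 h, a difference of -0.50 ± 0.23 that did not pass (limma adjusted p = 0.239). The neighbouring identifier Solyc03g005780 gave -0.04 ± 0.18 and -0.29 ± 0.20.

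The 3 small subunit genes all had higher means at 24 and 48 h. Solyc02g085950 was called in both cultivars. In Moneymaker internodes its lowest, median and highest values were 998, 1257 and 4376 scaled reads at 24 and 48 h, against 552, 882 and 1937.5 at 6 and 30 h, a log2 difference of 0.76 ± 0.19 (limma adjusted p = 0.00286). In M82 internodes they were 1343, 1979 and 2896, against 701, 1226 and 2555, a difference of 0.68 ± 0.21 (limma adjusted p = 0.0238). The groups overlapped in both cultivars, and with the 12 libraries left out the differences were 0.76 and 0.68 (limma adjusted p = 0.00176 and 0.0295). With the replicate number as a block the M82 difference was 0.57 and did not pass (limma adjusted p = 0.0635). It also missed when FR replicate 2 at 30 h, FR replicate 3 at 24 h or WL replicate 2 at 24 h was left out (limma adjusted p = 0.0542, 0.0699 and 0.168).

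Solyc02g063150 was called in Moneymaker only, with a median of 683 scaled reads at 24 and 48 h and 481 at 6 and 30 h (0.49 ± 0.14, limma adjusted p = 0.012). That call did not survive removal of the WL library at 24 h, replicate 1, or of the WL library at 6 h, replicate 5 (limma adjusted p = 0.0626 and 0.194). In M82 its medians were 854 at 24 and 48 h and 677 at 6 and 30 h (0.29 ± 0.15, limma adjusted p = 0.33). With the 12 libraries left out it gave 0.53 in Moneymaker and 0.23 in M82 (limma adjusted p = 0.0124 and 0.639). Solyc03g034220 did not pass in either cultivar. Its medians were 3443.5 at 24 and 48 h and 2436 at 6 and 30 h in Moneymaker, and 4059 and 2868 in M82. Its differences of 0.45 ± 0.18 and 0.56 ± 0.20 (limma adjusted p = 0.103 and 0.0549) were as large as those of genes that passed, and 0.46 and 0.61 with the 12 libraries left out (limma adjusted p = 0.136 and 0.0953). Leaving out single libraries brought it past the threshold in 1 case in Moneymaker and 6 cases in M82.

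**Figure D3:**
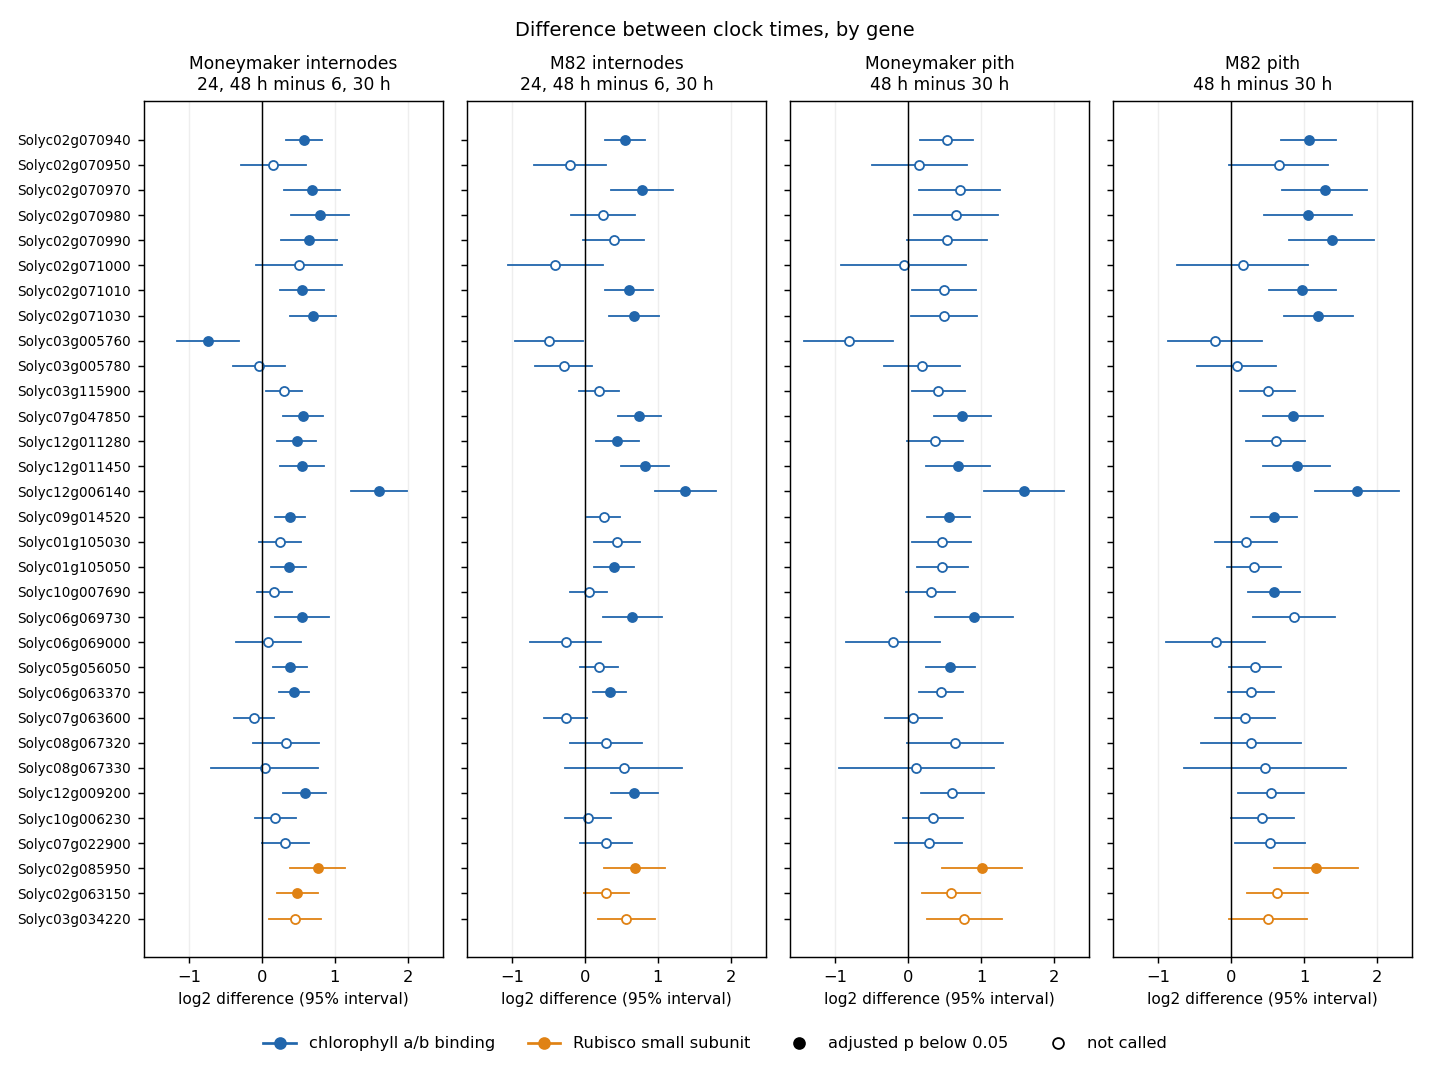
Log2 difference between clock times (x axis, with 95% interval) for each of the 32 genes (y axis), 24 and 48 h minus 6 and 30 h in internodes and 48 minus 30 h in pith, by cultivar. In pith, clock time cannot be told apart from time since the treatment began. Blue marks chlorophyll a/b binding genes, orange Rubisco small subunit genes, and filled points passed an adjusted p of 0.05. Solyc12g006140 stands farthest right in all 4 panels, at 1.61, 1.37, 1.59 and 1.72, and Solyc03g005760 is left of 0 in all 4.

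Pith sampled on the second day showed the same direction. Pith was taken at 30 and 48 h only, so clock time and time since the treatment began cannot be told apart there. From 14 libraries in each cultivar, 7 of the 32 genes were higher at 48 h than at 30 h in Moneymaker pith and 12 in M82 pith, where 4.77% and 2.49% of all genes were called higher. In neither cultivar was any of them called lower (0 genes), where 2.55% and 1.64% of all genes were. The median log2 difference of the 32 was 0.49 and 0.57, against 0.025 and 0.015 over all genes tested, and 29 and 30 were positive. Solyc12g006140 had 80.3, 132 and 278 scaled reads as lowest, median and highest value at 48 h in Moneymaker pith, against 25.02, 46.4 and 72.6 at 30 h, with no overlap (1.59 ± 0.28, limma adjusted p = 2.09e-05). In M82 pith it had 31.8, 136 and 256 at 48 h, against 21.2, 35.02 and 68.7 at 30 h (1.72 ± 0.29, limma adjusted p = 2.1e-05). The 31.8 was WL replicate 6, which went against its time label, and the next value was 94.97. Without the 12 libraries the differences were 1.57 and 1.86.

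The pith counts depended on single libraries more than those of internodes. In Moneymaker pith 2 genes were called when WL replicate 2 at 48 h was left out, and 4 when FR replicate 4 at 48 h was. With the replicate number as a block 10 were higher and 1 lower, and 6 of these 11 were among the 7. In M82 pith 3 were called when FR replicate 3 at 30 h was left out, and 5 when the model held the compared groups only. The M82 FR pith at 30 h has 2 libraries, so that without replicate 3 it had no replication. When the 12 libraries were left out 8 genes were called in Moneymaker pith and 12 in M82 pith, of which 6 and 10 were called with them. Calls over all genes (either direction) went from 1393 to 1426 and from 787 to 949.

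Of the small subunit genes, Solyc02g085950 was again called in pith of both cultivars. It had a lowest value of 865, a median of 1677 and a highest value of 1875 scaled reads at 48 h in Moneymaker pith, against 381, 732 and 917 at 30 h (1.01 ± 0.28, limma adjusted p = 0.0106). In M82 pith it had 676, 1970 and 2847, against 429, 863 and 1206 (1.16 ± 0.29, limma adjusted p = 0.007). The groups overlapped in both cultivars, and the 676 in M82 came from WL replicate 6. With the 12 libraries left out the differences were 0.97 and 1.40 (limma adjusted p = 0.00699 and 0.000635). The call was lost when WL replicate 2 at 48 h was left out in Moneymaker (limma adjusted p = 0.0792), and in M82 when FR replicate 3 at 30 h was left out or when only the compared groups were modelled (limma adjusted p = 0.285 and 0.143). Solyc02g063150 differed by 0.59 ± 0.20 and 0.64 ± 0.21 and Solyc03g034220 by 0.77 ± 0.26 and 0.50 ± 0.27 in Moneymaker and M82 pith, none past the threshold in limma (adjusted p = 0.06, 0.0734, 0.0507 and 0.378). These calls depended on the setting. In Moneymaker pith Solyc02g063150 passed with the 12 libraries left out (0.66, limma adjusted p = 0.0426), in edgeR (adjusted p = 0.0447) and in DESeq2 (adjusted p = 0.0298). Solyc03g034220 passed there with TMM scaling (limma adjusted p = 0.0491), in edgeR (adjusted p = 0.0173), in DESeq2 (adjusted p = 0.00976) and with the replicate block (0.73, limma adjusted p = 0.0233), but not with the 12 libraries left out (0.70, limma adjusted p = 0.116). In M82 pith Solyc02g063150 passed in DESeq2 (adjusted p = 0.0393) and with the replicate block (0.69, limma adjusted p = 0.0354), but not with the 12 left out (0.69, limma adjusted p = 0.097).

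Across both tissues and both cultivars, 4 genes were called higher in every comparison of clock time: Solyc12g006140, Solyc07g047850, Solyc12g011450 and Solyc02g085950. A further 16 were called in at least 1 of the 4 comparisons, and 12 in none. The same counts over all genes tested were not made, so these cannot be set against them. The 12 were Solyc02g070950, Solyc02g071000, Solyc03g005780, Solyc03g115900, Solyc01g105030, Solyc06g069000, Solyc07g063600, Solyc08g067320, Solyc08g067330, Solyc10g006230, Solyc07g022900 and the small subunit gene Solyc03g034220. Of these, Solyc07g063600 had differences of -0.11 ± 0.14 and -0.27 ± 0.15 in Moneymaker and M82 internodes, with 95% intervals of -0.38 to 0.16 and -0.56 to 0.03. Solyc03g115900, by contrast, was positive in all 4 comparisons, from 0.19 to 0.50, and missed the threshold in each. A gene outside the called list is thus not shown to be constant.

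The identifiers place the genes on 10 chromosomes, and some sit in runs. The longest run, Solyc02g070940 to Solyc02g071030 on chromosome 2, holds 8 of the 32 genes. In that run 6 genes were called higher at 24 and 48 h in Moneymaker internodes and 4 in M82 internodes, and 6 at 48 h in M82 pith, against 0 in Moneymaker pith, where 7 of the 8 were positive. All 4 genes on chromosome 12, whose identifiers are not adjacent (Solyc12g006140, Solyc12g009200, Solyc12g011280 and Solyc12g011450), were called higher in internodes of both cultivars. On chromosome 3, 0 of 4 genes were called higher. Similar copies within a run may share reads. The sources used here do not say how reads that match several copies were counted. Values within a run may thus not be independent of each other.

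The clock difference was also taken apart by light and by day. In Moneymaker internodes under FR 18 of the 32 genes were called higher, against 1 under WL (Solyc12g006140), where 4.2% and 1.43% of all genes were called higher. The medians of the 32 were 0.58 and 0.26. The test of the difference between these clock effects, which is the far-red effect at 24 and 48 h minus that at 6 and 30 h, called 0 genes in limma. Its median over the 32 was 0.37, 30 were positive, 3 had an unadjusted p below 0.05, and edgeR and DESeq2 called 0. FR had 19 libraries there and WL 13. In M82 internodes 5 genes were called under FR and 3 under WL, where 2.62% and 2.97% of all genes were called higher, with medians of 0.33 and 0.37. With the replicate block 8 were called under FR, and without the 12 libraries 1 under WL. The test of the difference called 0 with each of limma, edgeR and DESeq2, and no gene of the 32 had an unadjusted p below 0.05 (0 genes).

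By day, 12 genes were called higher at 48 h than at 30 h in Moneymaker internodes and 4 at 24 h than at 6 h, where 4.16% and 2.24% of all genes were. With the replicate block the second day had 7, and the first day 5 higher and 1 lower. Over all genes the block changed calls in either direction from 1221 to 704 on the second day and from 863 to 1048 on the first. In M82 internodes 14 were called higher on the second day, where 3.73% of all genes were. On the first day limma called 0 higher in M82, where 2.4% of all genes were. Before adjustment 6 of the 32 genes had p below 0.05, against 3071 of all genes tested. On that day edgeR called 0 genes, and DESeq2 1 higher and 1 lower. With the 12 libraries left out the second day had 12 higher in Moneymaker and 14 in M82, and the first day 3 higher and 1 lower in Moneymaker and 0 in M82. A test of the second day's change minus the first day's, added after these counts were seen, called 0 of the 32 in either cultivar with limma, edgeR and DESeq2. In it 1 gene in Moneymaker and 10 in M82 had an unadjusted p below 0.05, against 1225 and 2060 of all genes tested. Solyc12g006140 differed by 1.76 ± 0.26 on the second day and 1.46 ± 0.28 on the first in Moneymaker, and by 1.75 ± 0.27 and 1.00 ± 0.32 in M82. For Solyc03g034220 in Moneymaker the values were 0.92 ± 0.24 on the second day and -0.01 ± 0.26 on the first. The mean of the second day did not differ from that of the first for any of the 32 in limma, edgeR or DESeq2 (0 called, and 0 at an unadjusted p below 0.05 in limma). In these tests of the days limma called 0% of all genes.

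Added far-red light gave no call among the 32 genes when averaged over times. With limma 0 genes passed in Moneymaker internodes and pith and 0 in M82 internodes and pith, where 1.59%, 0.504%, 0.715% and 3.71% of all genes were called in either direction. The numbers at an unadjusted p below 0.05 were 2, 0, 0 and 0, against 2396, 1506, 1547 and 4075 of all genes tested. DESeq2 called 1 gene in Moneymaker internodes and 0 in the other 3 comparisons, and edgeR called 0 in all 4. Over all genes tested, most of the 3.71% called in M82 pith were lost without the 12 libraries. The medians of the 32 genes were -0.01, 0.15, -0.045 and 0.14 on the log2 scale, and 0.02, 0.11, -0.10 and -0.05 without the 12 libraries. Differences of 2-fold were outside the 95% interval for most genes: the interval lay within -1 and 1 for 31, 28, 31 and 27 of the 32.

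The gene with the smallest p in Moneymaker internodes was Solyc02g070990, which DESeq2 called. At 48 h its FR libraries had 31.2, 36.7, 25.5, 57.7, 47.6 and 55.5 scaled reads, against 19.4, 10.6, 20.4 and 17.97 in WL, with no overlap. The 19.4 and the 10.6 came from WL replicates 1 and 3, which went against their labels. At 6 h the FR libraries had 7.81, 6.67, 21.6, 22.3 and 16.3, against 11.7 and 15.0 in WL, which lie within their range. Averaged over the 4 times the log2 difference was 0.55 ± 0.19 (limma adjusted p = 0.143, DESeq2 adjusted p = 0.0459), and without the FR library at 30 h, replicate 1, it was 0.68 (limma adjusted p = 0.0448). With the 12 libraries left out it was 0.56 (limma adjusted p = 0.129). Its neighbour in the chromosome 2 run, Solyc02g070980, gave 0.54 ± 0.20 in Moneymaker internodes (limma adjusted p = 0.176). In M82 internodes the smallest p values belonged to Solyc02g070980 and Solyc07g022900, with differences of 0.40 ± 0.22 and -0.31 ± 0.18 (limma adjusted p = 0.678 and 0.712). In pith they were Solyc01g105050 and Solyc06g069000 in Moneymaker, with 0.30 ± 0.18 and 0.54 ± 0.32 (limma adjusted p = 0.727 and 0.734), and Solyc08g067320 and Solyc06g069730 in M82, with 0.61 ± 0.34 and 0.48 ± 0.28 (limma adjusted p = 0.298 and 0.317). Without the 12 libraries Solyc06g069730 gave 0.09.

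The small subunit genes had no far-red call in any comparison. Solyc02g085950 had a median of 1077.5 scaled reads in the 19 FR and 1109.5 in the 13 WL internode libraries of Moneymaker, and 1646 in the 11 FR and 1443 in the 15 WL internode libraries of M82. The ranges overlapped, and the log2 differences were 0.05 ± 0.19 and -0.05 ± 0.21, with 95% intervals of -0.33 to 0.43 and -0.47 to 0.36. Solyc02g063150 gave -0.11 ± 0.14 and -0.15 ± 0.15 and Solyc03g034220 -0.01 ± 0.18 and 0.02 ± 0.20 in Moneymaker and M82 internodes. In M82 pith Solyc02g085950 gave 0.35 ± 0.29 with all libraries and -0.18 without the 12, and Solyc03g034220 gave 0.39 ± 0.27 and 0.09. Solyc03g005760 gave -0.08 ± 0.21 in Moneymaker internodes and -0.32 ± 0.32 in M82 pith. Solyc12g006140, the gene that differed most by clock time, gave 0.04 ± 0.19 and -0.08 ± 0.28 in Moneymaker internodes and pith, and -0.02 ± 0.21 and 0.33 ± 0.29 in those of M82. None of these passed in limma (adjusted p from 0.3995 to 0.9975).

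**Figure D4:**
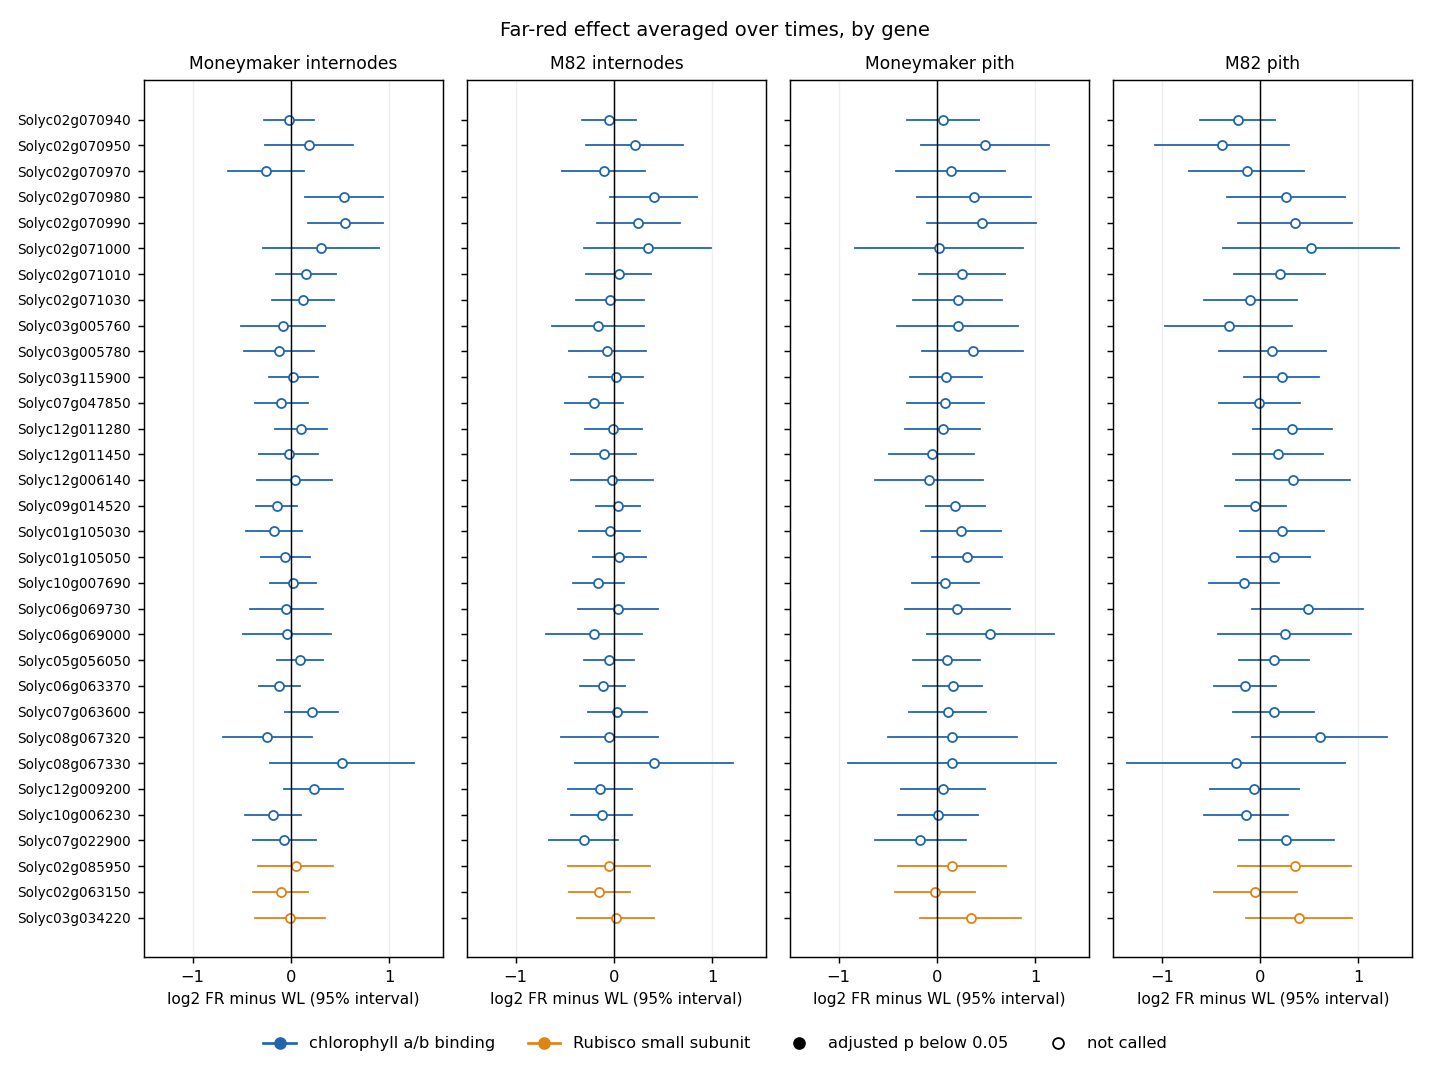
Log2 difference FR minus WL, averaged over times (x axis, with 95% interval), for each of the 32 genes (y axis) in internodes and pith of both cultivars. Blue marks chlorophyll a/b binding genes and orange Rubisco small subunit genes. All points are open, meaning that 0 genes passed an adjusted p of 0.05, and the medians are -0.01, -0.045, 0.15 and 0.14 from left to right.

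At single times the far-red differences leaned upward at 48 h in 3 of 4 comparisons. At 48 h 28 of the 32 genes were higher under FR in Moneymaker internodes (median 0.34), 31 in Moneymaker pith (median 0.25) and 27 in M82 pith (median 0.46), counting signs alone, but 8 in M82 internodes (median -0.18). Unadjusted p values were below 0.05 for 8, 4, 10 and 2 of them. Among the 19029 genes tested they were below it for 1468, 686, 3424 and 1119. Over all genes tested the share above 0 was 55.4%, 45.3%, 52.9% and 52.8%. With the 12 libraries left out 30, 28, 26 and 8 were positive, and 4, 1, 1 and 2 had an unadjusted p below 0.05. The Moneymaker WL internodes at 48 h then held only replicates 7 and 8. The genes of 1 comparison share their libraries, so signs are not independent, and the Moneymaker FR internode library at 48 h, replicate 4, was the highest of its group for all 3 small subunit genes. At 6, 24 and 30 h between 7 and 17 of the 32 were positive in internodes. In pith at 30 h 13 were positive in Moneymaker (median -0.05) and 5 in M82 (median -0.27), with 1 gene each at an unadjusted p below 0.05. Of all genes tested 1409 and 1935 were below it. With the 12 libraries left out the M82 pith at 30 h again had 5 positive (median -0.31), and 4 at an unadjusted p below 0.05.

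In the far-red comparisons at single times limma called 1 gene: Solyc12g009200 at 48 h in Moneymaker internodes, named after its values were seen. Of all genes tested, 0.0263%, 0.0946%, 0.142% and 0.158% were called at 6, 24, 30 and 48 h in Moneymaker internodes, and 0.273%, 0%, 0.378% and 0.0315% in M82 internodes. In pith at 30 and 48 h the shares were 0.242% and 0.0736% in Moneymaker and 0.205% and 1.1% in M82. Most of the 1.1% were lost without the 12 libraries. DESeq2 also called 1 gene at 24 h in Moneymaker internodes and 1 at 48 h in M82 pith. For Solyc12g009200 the FR libraries had 67.7, 64.7, 150.6, 70.1, 59.6 and 83.9 scaled reads, against 17.4, 30.0, 53.4 and 40.2 in WL, with no overlap. The log2 difference was 1.24 ± 0.26 (limma adjusted p = 0.0134). The 17.4 and the 30.0 came from WL replicates 1 and 3, which went against their labels. Without the 12 libraries the difference was 0.75 (limma adjusted p = 0.92), with WL replicates 7 and 8 alone on the WL side. The call was also lost without FR replicate 4, WL replicate 1 or WL replicate 3 alone (limma adjusted p = 0.0876, 0.262 and 0.0573), and with only the compared groups in the model (limma adjusted p = 0.267).

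Between pith and whole internode none of the 32 genes passed the threshold when both lights were averaged. At 30 and 48 h limma called 0 of the 32 in Moneymaker (14 pith and 17 internode libraries) and 0 in M82 (14 and 15), where 1.12% and 2.73% of all genes were called in either direction. At an unadjusted p below 0.05 there were 1 and 6, against 2053 and 2084 of all genes tested, and edgeR and DESeq2 called 0 of the 32 in both. The median log2 difference, pith minus internode, was 0.03 in Moneymaker and -0.18 in M82, against 0.0072 and -0.013 over all genes tested, with 18 and 4 of the 32 above 0. The 95% interval lay within -1 and 1 for all 32 genes in Moneymaker and for 31 in M82. Without the 12 libraries the M82 median was -0.13, with 8 above 0.

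**Figure D5:**
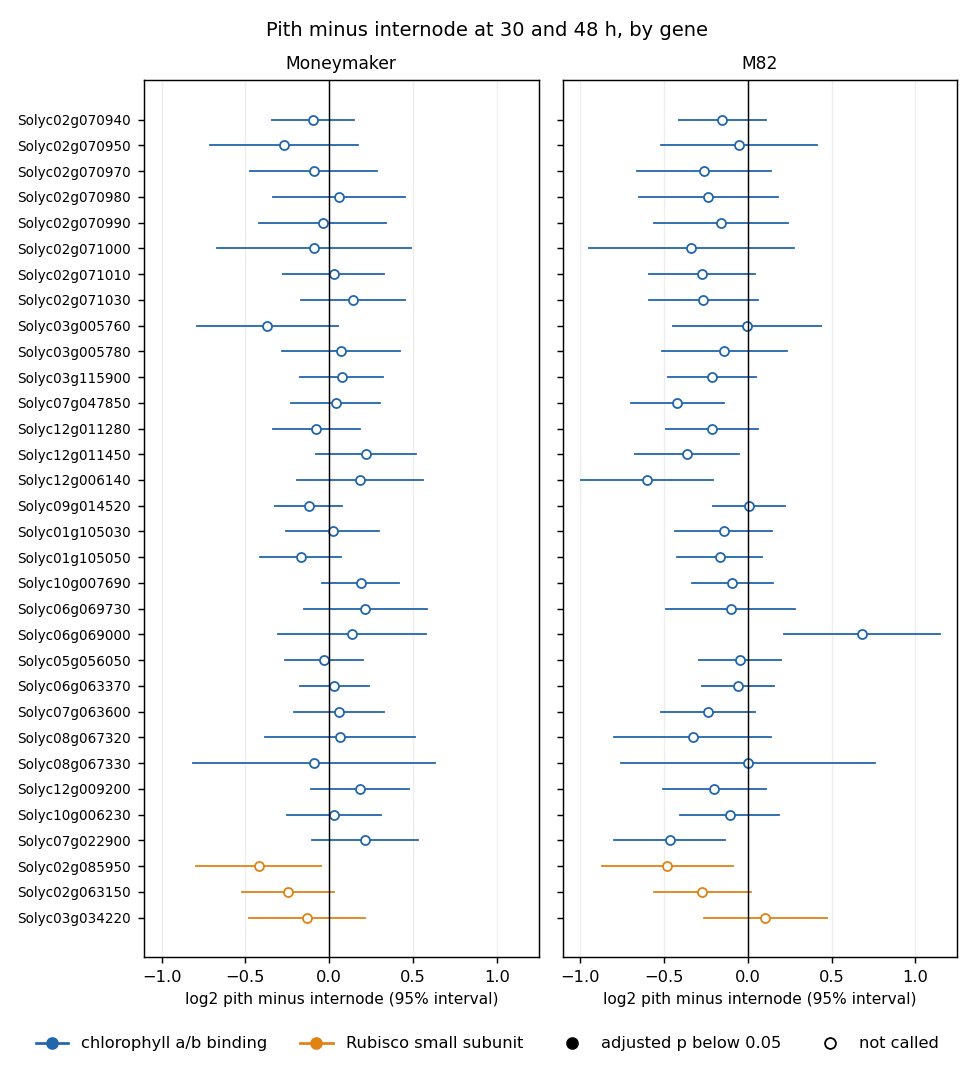
Log2 difference pith minus internode at 30 and 48 h (x axis, with 95% interval) for each of the 32 genes (y axis) in Moneymaker (left) and M82 (right). Blue marks chlorophyll a/b binding genes and orange Rubisco small subunit genes. All points are open, since 0 genes passed an adjusted p of 0.05, and in M82 28 of the 32 lie left of 0.

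In M82 the smallest p values belonged to Solyc12g006140 and Solyc07g047850. Solyc12g006140 had a lowest value of 21.2, a median of 81.8 and a highest value of 256 scaled reads in M82 pith, against 38.8, 89.7 and 262 in M82 internodes, a log2 difference of -0.60 ± 0.20 (limma adjusted p = 0.0898). Without the 12 libraries it was -0.39 (limma adjusted p = 0.398). Solyc07g047850 had 415, 1034 and 1955 in pith, against 585, 1222 and 2347 in internodes (-0.42 ± 0.14, limma adjusted p = 0.0974), and passed without the FR pith library at 30 h, replicate 1 (-0.53, limma adjusted p = 0.028). In Moneymaker the same genes gave 0.18 and 0.04. The small subunit gene Solyc02g085950 had a median of 891 in pith and 1220 in internodes of Moneymaker, and 1179 and 1646 in M82. Its differences were -0.42 ± 0.19 and -0.48 ± 0.20 (limma adjusted p = 0.359 and 0.261), and -0.44 and -0.25 without the 12. Solyc02g063150 gave -0.25 ± 0.14 and -0.27 ± 0.15, Solyc03g034220 gave -0.13 ± 0.17 and 0.10 ± 0.18, and Solyc03g005760 gave -0.37 ± 0.21 and -0.0038 ± 0.22, none past the threshold in limma (adjusted p from 0.507 to 0.998).

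Split by light, 1 gene was called lower in M82 pith under WL, where 1.45% of all genes were called lower, and it is named after its values were seen. Solyc07g022900 had 55.8, 79.9, 73.5 and 60.6 scaled reads in WL pith at 30 h, against 90.4, 101.9, 151.5, 120 and 125 in WL internodes. At 48 h it had 56.8, 100.9, 80.6, 102.2 and 56.4 in WL pith, against 106.8, 111.4, 163.9 and 188.5 in WL internodes. Pith lay below the internodes at both times with no overlap, and the log2 difference was -0.82 ± 0.20 (limma adjusted p = 0.0154). The call was lost without the 12 libraries (-0.70, limma adjusted p = 0.216) and without the WL internode library at 48 h, replicate 4 (limma adjusted p = 0.0648). The count also moved upward: 4 genes were called lower with the replicate block and 4 without the WL pith library at 48 h, replicate 2. Leaving out single other libraries gave 3 calls (WL pith at 30 h, replicate 2, and at 48 h, replicates 4 and 5) or 2 calls (WL internodes at 30 h, replicate 1, and at 48 h, replicate 2, and WL pith at 30 h, replicate 4). Under FR in M82, and under either light in Moneymaker, limma, edgeR and DESeq2 called 0, where 0.331%, 0.904% and 0% of all genes were called. Before adjustment 1, 0 and 0 of the 32 had p below 0.05 in limma, against 1571, 1815 and 1005 of all genes tested.

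Tests of differences between groups called none of the 32 genes. They asked whether the far-red effect differed between cultivars (internodes and pith) or between clock times (each cultivar), whether the tissue difference changed between 30 and 48 h (each cultivar), and whether the clock effect or the tissue difference depended on the cultivar. In all 8 limma called 0 of the 32, as did edgeR and DESeq2, and of all genes tested 0% passed in 7 of them and 0.00526% in the far-red effect between clock times in M82. Unadjusted p values were below 0.05 for 0 and 0, 3 and 0, 0 and 2, 1, and 4 genes, in the order just given. Over all genes tested the counts were 496 and 1412, 413 and 1490, 502 and 928, 576, and 875. The median SE of these differences over the 32 genes was 0.22 to 0.34, against 0.15 to 0.23 for the averaged far-red, clock and tissue effects, so a count of 0 does not show that effects were equal.

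Within groups most pairs of the genes varied in the same direction. After the group means were removed, the median correlation over the 86 libraries was 0.27 for the 496 pairs among the 32 genes, of which 386 were above 0, against 0.0125 for pairs of all tested genes. This is a description over libraries that share scaling and batch. It includes the 12 libraries that went against a label and was not repeated without them. The pairs of all tested genes include genes with a mean as low as 1, so read depth was not matched. Solyc03g115900 had the highest median correlation with the others (0.50), followed by Solyc10g006230 and Solyc12g006140 (0.46 each). Solyc08g067330 had the lowest, -0.32, and its values spanned 0.284 to 46.5 scaled reads. It was at 2.53 scaled reads in the Moneymaker FR internode library at 48 h, replicate 4, where Solyc12g006140 and the 3 small subunit genes had their highest values of the group. Solyc03g005760, the gene called lower by clock time in Moneymaker internodes, had a median correlation of -0.03.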

How the data were processed

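RNA was measured by sequencing of polyA-selected, random-primed libraries, per the labels' protocols. The submitters' processing notes name FastQC, Trim Galore, STAR and featureCounts, with no versions. The signal in the deposited table is a read count that the authors divided by 1 factor per library. Of the values above 0 and up to 2000 reads, 100% became whole reads within 0.02 when the smallest step was taken as 1 read. Because the values are scaled, limma was used in place of the count test planned for whole counts. The model (limma 3.58.1 in R 4.3.3, trend and robust) was fitted to log2(value + 1) of the 19029 genes of 23050 with a mean of at least 1, with 1 mean for each of the 24 groups over all 86 libraries. Fold changes are on that scale, and p-values were Benjamini-Hochberg adjusted over all 19029 genes, two-sided. The recovered reads went into edgeR 4.0.16 (quasi-likelihood) and DESeq2 1.42.0 as alternatives. The limma fit was checked on simulated counts with known changes, but the recovery of reads, edgeR and DESeq2 were not.

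Members and lists were chosen with earlier results of these data known. Values are given in full for the 3 small subunit genes, for the chlorophyll a/b binding gene with the highest mean, for the 3 called genes of smallest p in each direction of a comparison, and for the 2 of smallest p where none was called. The labels state at least 4 biological replicates a group, and the groups here hold 2 to 6. According to the series' design text a replicate number marks plants of 1 batch, so a fit with the number as a block was made. Over all genes, same-numbered FR and WL libraries deviated from their group means with a mean correlation of 0.0499 (26 pairs), against -0.00859 for other pairs (125). Same-numbered libraries of another tissue or time had a mean of 0.12 (142 pairs, 80 of them over 0.1), against -0.0255 for other numbers (651). The highest correlation of 2 libraries of a group was 0.973, and each counts as 1 sample. Moneymaker replicates 7 and 8 occur only in internodes at 48 h, under both lights. Their deposited library names have another form (MF5I4, MF6I4, MW5I4 and MW6I4), and what it marks is not stated. The fit with the block treats them as batches of their own. Any difference that comes with that form falls on 48 h alone. With the 12 libraries left out, replicates 7 and 8 are the only Moneymaker WL internodes at 48 h. Reads carry no molecular identifiers. Cultivar labels were checked with 10 genes higher in Moneymaker and 15 higher in M82, and time labels with 30 genes per direction.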

Additional observations from a re-analysis of the deposited data

Results flagged for a closer look

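In 84 groups of values, for the 2 family shares, the 3 small subunit genes, Solyc12g006140 and Solyc03g005760, 5 had 1 library far from the others. Chance gives such a value in about 1 of 20 groups. The M82 WL internode library at 30 h, replicate 2, had a chlorophyll a/b binding share of 1.3408% of reads, where the other 4 of its group had 0.94161 to 0.95706%. The same library had 2555.1 scaled reads of the small subunit gene Solyc02g085950, against 997.7 to 1443.3 in the others. Solyc02g085950 was also high in Moneymaker FR internodes at 6 h, replicate 4, with 1937.5, against 552.22 to 898.65, and at 24 h, replicate 1, with 1825.1, against 997.57 to 1186.8. Solyc02g063150 had 1871.2 in the Moneymaker FR internode at 48 h, replicate 4, against 731.91 to 1028.5. None of these 4 libraries went against its cultivar or time label. What sets them apart was not tested.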

How the results depend on the processing

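The far-red effect in Moneymaker internodes had 1 call with DESeq2 and 0 with limma. With the replicate block, the clock effect in M82 internodes had 8 calls in place of 13 and the time effect in Moneymaker pith 11 in place of 7. Over all genes tested these counts were 1561 in place of 1729 and 1439 in place of 1393. With the compared groups alone, the time effect in M82 pith had 5 in place of 12. Leaving out 1 library at a time gave 0 to 1 calls for the far-red effect in Moneymaker internodes, 13 to 19 and 8 to 14 for clock time in Moneymaker and M82 internodes, 2 to 9 and 3 to 14 for time in Moneymaker and M82 pith, and 0 to 1 for pith against internode in M82. The highest values came without the FR internode at 30 h, replicate 1, for far-red in Moneymaker, and without the FR pith at 30 h, replicate 1, or the FR internode at 30 h, replicate 3, for pith in M82. The other 12 comparisons stayed at 0 calls. The cause of these shifts was not tested.

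Among the split comparisons, the first day in Moneymaker had 4 calls with limma, 2 with edgeR, without the filter on low values, or with the compared groups alone, and 6 with DESeq2 or the replicate block. The second day in Moneymaker had 12 and with the replicate block 7. Clock time in M82 under FR had 5, with the block 8 and with the compared groups alone 3, and under WL 3, with DESeq2 6 and without the 12 libraries 1. The M82 first day had 0 and with DESeq2 2, and the tissue difference under WL in M82 had 1 and with the block 4. Over all genes tested the counts moved as well. The Moneymaker first day had 863 with limma, 891 with edgeR, 820 without the filter and 979 with the compared groups alone. It had 1053 with DESeq2 and 1048 with the block, and the second day 1221 and with the block 704. The M82 first day had 834 and with DESeq2 1111, and the M82 tissue difference under WL 288 and with the block 386. Of 112 alternative values for the 14 called differences of genes described in full, 107 kept their side of the threshold, 5 lost the call and 0 reversed. Pseudocount and TMM scaling moved no count by over 1.5 times. With the block, clock time in Moneymaker internodes had 17 in place of 19. Depth of 0.769 M reads in the shallowest library limits the genes with few reads, such as Solyc06g069000.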
